A study of Mus musculus with 20 samples.

Results

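Sox10 and Sox9 encode transcription factors of the SoxE family, and the regions described here are those that the study's lists of accessible chromatin hold around these genes. Every entry that overlapped 1 of 2 windows was taken, on chromosome 15 from 78885000 to 79095000 for Sox10 and on chromosome 11 from 112543000 to 112749000 for Sox9 (mm9), which reach 100 kb to each side of the gene. The windows held 181 of the 311456 entries on the autosomes and chromosome X, 123 of them around Sox10 and 58 around Sox9. Within them Sox10 was taken to lie from about 78.985 to 78.995 Mb and Sox9 from about 112.643 to 112.649 Mb. These positions were not checked against an mm9 annotation. In RefSeq's GRCm38.p6 annotation the genes measure 9578 and 5548 bp, close to the 10000 and 6000 bp given by these rounded limits. Distances below run from the gene's start, which is the high-coordinate end for Sox10 and the low-coordinate end for Sox9, to the middle of an entry.

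ATAC-seq, which marks DNA that the Tn5 transposase can enter, was run on nuclei of sorted mouse cells. Normal C57BL6J glands gave 4 cell types with 2 samples apiece: fMaSC (fetal mammary stem cells, embryonic day 18) and basal, luminal progenitor and mature luminal cells of adults, whose age was not given. The tumour cells were luminal cells of PY230, a single mouse mammary tumour line, sorted as SOX10 high (3 samples) or SOX10 low (3 samples) from tumours grown in syngeneic C57BL6J hosts. The other 6 of the 20 samples were not analysed here. Each normal type has 1 peak list made from both of its samples, with the fold of each peak over the background set by the authors' peak caller. Each type also has a UAR and a URR list, names the labels do not expand. Of mature luminal URRs, 100% held an fMaSC peak, 100% a basal peak, 99.7% a luminal progenitor peak and 20.6% a mature luminal peak, so the lack of peaks of that type in a URR is partly how the list was made. The last pair of lists gives regions open or closed in SOX10-high PY230 cells, with a score by the authors, as UARs and URRs have. Since the cells were sorted by SOX10 level, the tumour comparison at Sox10 is a comparison at the gene of the sort. The sources used here do not say how that level was read. If it was read from an introduced reporter that carries Sox10 regulatory DNA, copies of that DNA can add reads at Sox10, and this was not tested. Folds and scores rank entries within 1 list, and values of different lists stand side by side below only as description. No list gives a value per sample, so the depth behind a value is unknown, there is no replicate error, and every comparison below is a description without a test. Defining markers of the cell types could not be placed without an mm9 annotation, so the labels were not checked against them.

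SoxE factors bind DNA through an HMG box and set cell fate in several lineages. SOX10 is best known as a factor of the neural crest, where it specifies glia and pigment cells, and SOX9 as a factor of cartilage and testis. In the mammary gland both have been tied to stem and progenitor states, SOX10 mainly in fetal, basal and luminal progenitor cells and SOX9 in luminal progenitors. An ATAC-seq peak at such a gene marks accessible DNA, often a promoter or an enhancer, and does not measure the gene's expression. The loci differ in their surroundings. In GRCm38.p6, 8 other protein-coding genes lie within 100 kb of Sox10: Ankrd54, Eif3l, Micall1, 1700088E04Rik and Polr2f on one side, and Pick1, Slc16a8 and Baiap2l2 on the other. Within 100 kb of Sox9 there are 0, and 5 genes of long non-coding RNAs. An entry in the Sox10 window therefore need not belong to Sox10, and none is assigned to a gene here beyond its position. Polr2f, the nearest protein-coding neighbour, lies 3.14 kb from Sox10 in GRCm38.p6, on the side of the gene's end.

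Around Sox10, basal cells had 39 peaks, fMaSC 29, luminal progenitors 25 and mature luminal cells 15. Every one of these numbers was above the mean of its own list over 12553 consecutive windows of the same length, by 6.08-fold in basal cells, 5.21-fold in luminal progenitors, 4.55-fold in fMaSC and 3.05-fold for the mature luminal list. As many peaks as in the Sox10 window were found in 0.199% of these windows for basal cells, 0.781% for fMaSC, 0.805% for luminal progenitors and 7.86% for mature luminal cells. Basal peaks covered 17.3% of the window, fMaSC peaks 10.5%, luminal progenitor peaks 7.15% and mature luminal peaks 4.65%. Around Sox9 the first 3 types were nearly level, with 16 basal, 16 fMaSC and 15 luminal progenitor peaks, against 8 mature luminal peaks. These were 2.54, 2.56, 3.19 and 1.66 times the mean of each list over 12796 windows. Coverage of the Sox9 window was 7.36% by basal peaks, 5.23% by fMaSC peaks, 4.70% by luminal progenitor peaks and 3.35% by mature luminal peaks. Mature luminal cells thus had the fewest peaks and the least covered sequence of the 4 types in both windows, and the fewest peaks also relative to their own list. Within 50 kb of Sox9 the difference was small, with 8 mature luminal, 9 basal, 10 luminal progenitor and 11 fMaSC peaks. Mature luminal peaks covered 6.52% there, against 6.59% by fMaSC, 6.96% by luminal progenitor and 9.27% by basal peaks. Numbers relative to each list were not computed for that span. With peaks at or above the median fold of each list, fMaSC had 17 and basal cells 16 around Sox10, so basal cells no longer had the most. With an equal number of the strongest peaks from each list, the numbers drew together, to 13, 11, 10 and 8 around Sox10 in the order basal, fMaSC, luminal progenitor and mature luminal. Around Sox9 they were 5, 6, 5 and 4 in that order.

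At the Sox10 gene itself, peaks were present in fetal, basal and luminal progenitor cells and absent from the mature luminal list. In basal cells 3 peaks touched the gene and covered 39.5% of it, in luminal progenitors 4 peaks covered 17.7%, and in fMaSC 5 peaks covered 14.4%. The basal signal was gathered in 1 broad peak of 2992 bp at the start of the gene, on chromosome 15 from 78992025 to 78995016. Its fold was 13.6, the 20655th of 80294 basal peaks, and it was among the widest 1.34% of that list. In luminal progenitors the same stretch held 4 separate peaks, the strongest from 78992586 to 78993483 with a fold of 6.03. In fMaSC it held 3 peaks, with folds of 4.56, 4.81 and 5.06. The start thus held the highest fold within the gene in each type that had peaks there. The signal was 1 broad peak in basal cells, and weak and broken in the others.

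These peaks were low in their lists outside basal cells. None of the fMaSC or luminal progenitor peaks touching Sox10 reached the median fold of its list, 7.60 and 6.86, against 1 of 3 in basal cells, where the median was 7.98. The weakest luminal progenitor peak in the gene, from 78992118 to 78992406, had the lowest fold found in that list, 3.12. A missing mature luminal peak means that no site passed the authors' q-value of 0.001, and the lowest fold in that list was 3.49. Folds in each list are whole multiples of 1 step, between 0.208 and 0.253, so small differences in fold are a few steps. The nearest mature luminal peaks ended at 78979234 below the gene and began at 79007123 above it, which left 27.9 kb without a peak. Wholly inside this stretch lay 9 fMaSC, 9 basal and 6 luminal progenitor peaks.

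**Figure D1:**
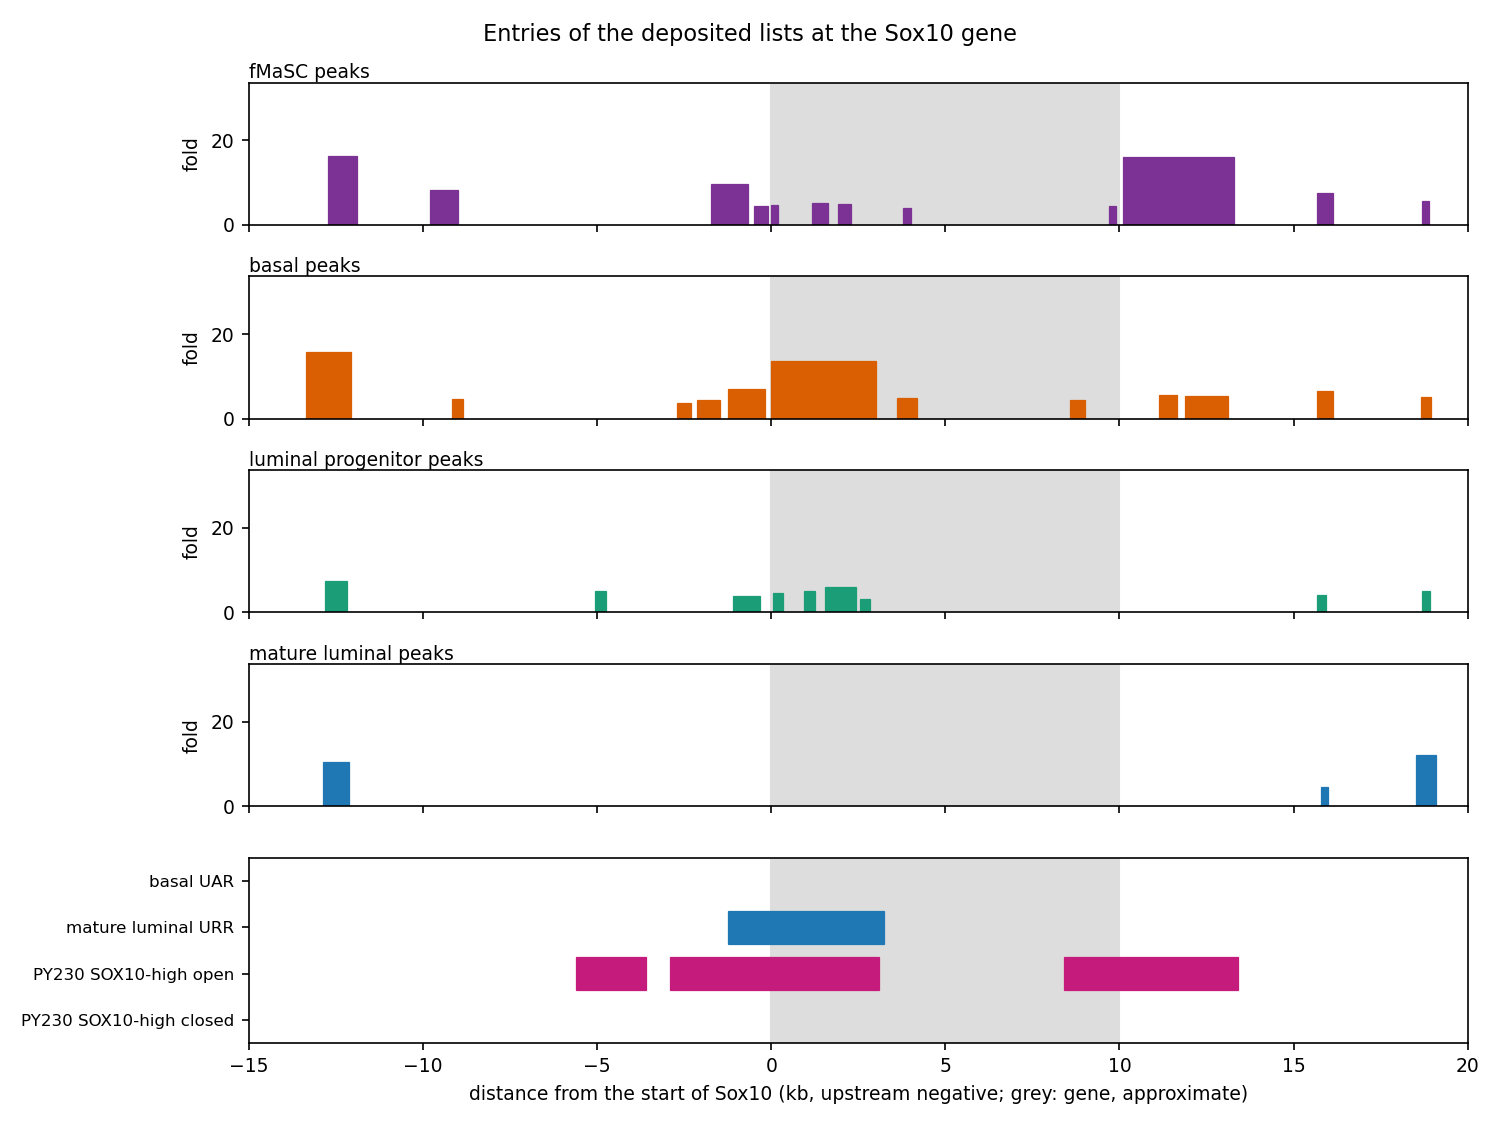
Peaks and regions at Sox10, by distance from its start in kb (upstream negative, gene in grey at its approximate position). Bars in the upper 4 panels span each peak, with the authors' fold as height, and boxes in the lowest panel span UAR, URR and PY230 regions. The mature luminal panel is empty over the gene, where basal cells have a broad peak with a fold of 13.6.

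Fetal cells differed from the adult types at the far end of Sox10 and just upstream of it. Beyond the end of the gene, from 78981670 to 78984851, fMaSC had their widest peak of the window, 3182 bp with a fold of 16.0, the 123rd widest of 79910. Basal cells had weak peaks in this stretch, with folds of 5.39 and 5.60, and neither luminal list had one. Just upstream of the start, from 78995716 to 78996755, fMaSC had a peak with a fold of 9.62, in the upper 36.1% of their list. Basal peaks covered 79.9% of it. The stronger, from 78995164 to 78996224, had a fold of 6.90 and lay in the upper 58.3% of the basal list. The other, from 78996434 to 78997087, had a fold of 4.31. The luminal progenitor peak there had a fold of 3.95, in the upper 92.0% of its list. Between the nearest mature luminal peaks, the highest folds of fMaSC thus flanked the gene, and the highest basal fold lay at its start.

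Merging the peaks of all types gave 47 regions around Sox10. Of these, 11 had a peak in all 4 types, which is 23.4%, against 21.7% of all 128797 merged regions. Peaks of a single type made up 22 regions (46.8%, against 46.0%), and 12 of these were basal. A basal peak lay in 37 of the 47 regions, or 78.7%, against 61.5% of all regions, and a mature luminal peak in 15, or 31.9%, against 45.9%. The other 32 lacked one, which is the case for 54.1% of all regions. The share with an fMaSC peak, 55.3%, and that with a luminal progenitor peak, 44.7%, were close to the 58.0% and 44.4% of all regions. Over peaks of any height, the locus thus had a higher share of regions with a basal peak and a lower share with a mature luminal peak than the genome, while sharing among types was near the genome's average. The strongest shared region was the farthest from the gene, 101.8 kb downstream of the start, from 78892382 to 78894011. Its folds were 31.1 (fMaSC), 30.0 (basal), 26.7 (mature luminal) and 19.7 (luminal progenitor), the highest of the window in each list. Other shared regions lay 55.3 kb downstream, with folds of 14.4, 20.5, 17.2 and 9.56 in the same order, and 33.0 kb downstream, with 14.4, 19.8, 11.7 and 12.9. The shared region nearest the start, 12.6 kb upstream, had folds of 16.2, 15.7, 10.5 and 7.48. At 18.8 kb downstream the mature luminal fold was the highest, 12.2, against 5.57 in fMaSC, 5.17 in basal and 4.99 in luminal progenitor cells. The median fold of mature luminal peaks in the window, 9.71, was above their list's 8.47. It was below the list's for basal (6.9 against 7.98) and luminal progenitor peaks (5.82 against 6.86), and 7.6 in both for fMaSC.

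Some regions with peaks in every other type had none in the mature luminal list. Peaks of fMaSC, basal cells and luminal progenitors without a mature luminal peak marked 4 regions, or 8.51%, against 6.47% of all regions, a share near the background. They lay over the first part of the gene, 1.1 kb upstream of its start, and 28.7 and 48.6 kb upstream. The region 48.6 kb upstream, from 79042694 to 79044578, had a fold of 22.5 in fMaSC, 13.1 in basal and 7.69 in luminal progenitor cells. The one 28.7 kb upstream, from 79022674 to 79024824, had 19.5, 8.41 and 6.86. Both were the strongest fMaSC peaks of the window after the shared region far downstream. All 4 regions overlapped a mature luminal URR, against 10.3% of the 8330 regions of this pattern, and 3 of the 4 were open in SOX10-high PY230 cells, against 5.56%. These were not all separate hits. The region over the first part of the gene and the one 1.1 kb upstream lie side by side, under the same URR and the same open region. With peaks within 500 bp merged, 3 regions of this pattern remained.

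The Sox10 window held 3 mature luminal URRs. They touched 4 of 47 merged regions, against 0.904% of all regions. Among consecutive windows of the same length, 26, or 0.207%, held 3 or more. The next mature luminal URR on the chromosome was 1860 kb away. The first covered the start of the gene, from 78991701 to 78996200, and at 4500 bp it was the 14th widest of 1028, with the 280th highest score. Basal peaks covered 89.5% of it, luminal progenitor peaks 56.6%, fMaSC peaks 42.6% and mature luminal peaks 0%. Another URR, from 79042501 to 79044800, ranked 22nd by score. The last, 28.5 kb upstream from 79022701 to 79024300, ranked 481st. An fMaSC peak covered 100% of it, and basal and luminal progenitor peaks 80.6 and 60.5%.

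Basal UARs were found away from the gene. They numbered 2 and touched 3 of 47 merged regions, or 6.38%, against 4.8% of all regions, a share near the background. One, from 78926501 to 78929800, lay 66.8 kb downstream of the start and ranked 4403rd of 5144 by score, and basal peaks covered 65.1% of it. The other, from 79040501 to 79041800, lay 46.2 kb upstream, ranked 2677th, and was covered to 41.7%. The only peak in it was basal. A stronger basal UAR, 325th by score, lay 2.1 kb outside the window, from 78881201 to 78882900. No UAR or URR of fMaSC or luminal progenitors, no basal URR and no mature luminal UAR lay in either window. Each of these 6 lists touches a small share of all merged regions, from 0.0225% (luminal progenitor URRs) to 2.96% (mature luminal UARs). The nearest fMaSC UAR to the Sox10 window was 1390 kb away, so none of the fetal peaks described above lay in an fMaSC UAR.

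**Figure D2:**
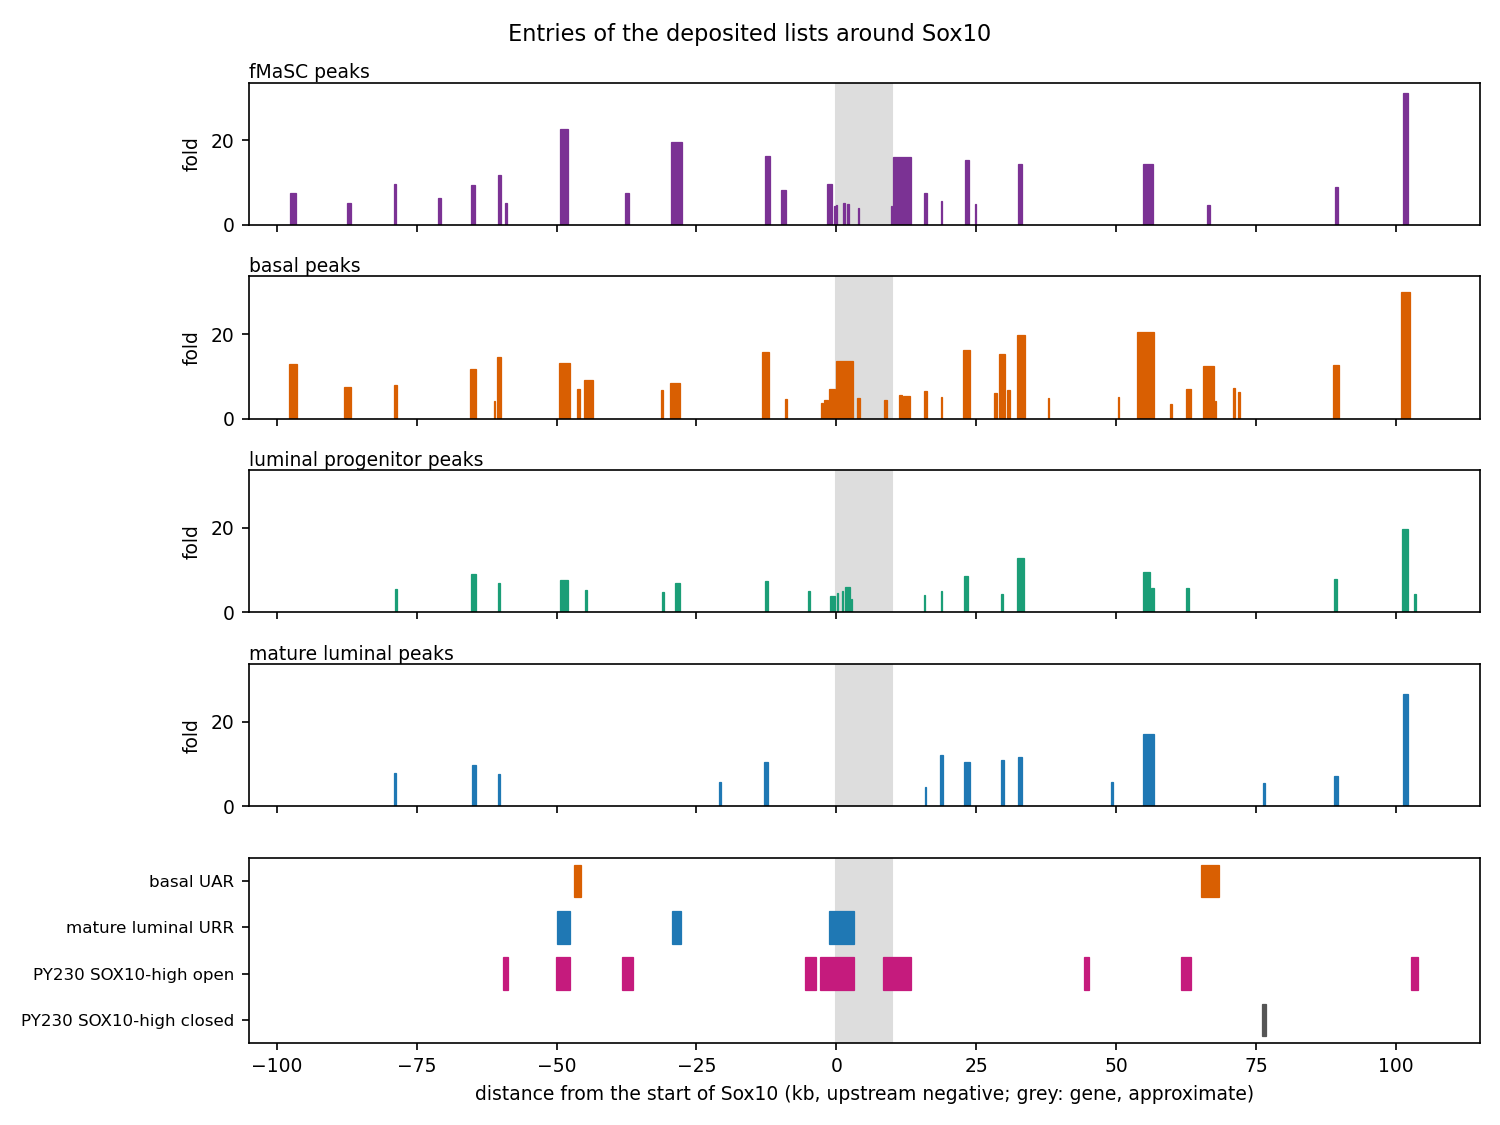
All entries around Sox10 by distance from its start in kb (upstream negative, gene in grey). The 4 upper panels give each peak's span and the authors' fold, and the lowest gives the spans of UAR, URR and PY230 regions. The 9 open regions lie on both sides of the gene and the 3 mature luminal URRs at its start and upstream of it, while the tallest peaks, 101.8 kb downstream, are shared by the 4 types.

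In luminal PY230 cells sorted for high SOX10, the Sox10 locus was among the densest places of open regions. The window held 9 of the 3208 open regions and 1 of the 15108 closed regions. No consecutive window of the same length held more than 9 open regions, and 2 of 12553 held as many. The mean was 0.257, and 82.4% of windows had none. Unlike the Sox10 window, these windows were not centred on a gene and can split a cluster, so windows placed freely could hold more. Open regions touched 12 of 47 merged normal regions, or 25.5%, against 1.88% of all regions. These 12 were not separate hits, since the wide open regions at the start and far end of the gene each touched several neighbouring merged regions. All 12 were among the 32 regions without a mature luminal peak, of which the list touches 3.13% in all, and the closed region touched 1 of 47, or 2.13%, against 11.0%. The open regions of the window covered 22.4 kb, or 10.7% of its sequence, with a median width of 1900 bp against 1400 bp over the list. Their median score was 91.1 against 44.5 over the list, and 7 of the 9 were at or above the list's median.

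The highest of them lay on the start of Sox10. It reached from 78991901 to 78997900, and its score of 542 was the 5th highest and its width of 6000 bp the 7th largest of the open list. Basal peaks covered 85.2% of it, luminal progenitor peaks 42.4%, fMaSC peaks 41.2% and mature luminal peaks 0%. It shared 4300 bp with the 4500 bp mature luminal URR at the start of the gene, the site where mature luminal cells lacked the peaks of the other types. The second lay over the far end of the gene, from 78981601 to 78986600, with a score of 263, the 43rd highest, and a width of 5000 bp, the 16th largest. It spanned the broad fetal peak: fMaSC peaks covered 67.6% of it, basal peaks 43.4%, and luminal progenitor and mature luminal peaks 0%. Of the open list, 1 region of the 10 highest and 2 of the 50 highest by score thus touched Sox10 at its approximate position. The second also reached past the gene's end, on the side of Polr2f.

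Another strong open region coincided with a distant normal site. It lay 48.8 kb upstream, from 79042501 to 79045000, with a score of 155, the 153rd highest, and contained the 2300 bp of the mature luminal URR that ranked 22nd in its list. Peaks of fMaSC, basal cells and luminal progenitors covered 58.3, 75.4 and 56.9% of it. Open regions sharing a base with a mature luminal URR made up 3.58% of the open list, and at Sox10 they were 2 of 9. From the other side, 11.1% of mature luminal URRs were open in SOX10-high cells, against 2 of the 3 at Sox10. The URR 28.5 kb upstream shared no base with an open region.

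The remaining 6 open regions were weaker and matched fewer normal peaks. Close to the gene, 4.6 kb upstream, the region from 78998601 to 79000600 (score 91.1, 492nd) held 1 luminal progenitor peak and no other. The region 44.7 kb downstream, from 78949801 to 78950800 (score 93.9, 460th), held no peak of any normal type, as was the case for 33.2% of the open list. At the edge of the window, 103.4 kb downstream, the region from 78891001 to 78892200 (score 77.8, 657th) held a luminal progenitor peak alone. It was followed inward by the region 62.5 kb downstream, from 78931501 to 78933400 (score 53.5, 1230th), with a basal and a luminal progenitor peak. Upstream, the regions at 59.2 kb (79053701 to 79054600, score 38.6, 1958th) and at 37.3 kb (79031301 to 79033200, score 28.6, 2720th) each held an fMaSC peak alone. The nearest open region outside the window was 49.2 kb beyond it, from 79144201 to 79145300, and ranked 1772nd.

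No open region at Sox10 held a mature luminal peak. Of the 9, 5 held an fMaSC peak, 5 a luminal progenitor peak, 4 a basal peak, 0 a mature luminal peak and 1 none of these. Over the open list the shares were 43.6, 48.7, 29.2 and 7.29% in that order, and 33.2% for none. A low share of mature luminal peaks is therefore common to the list and not particular to Sox10, and 90.0% of merged regions touched by any open region lack a mature luminal peak. None of the 11 regions shared by all types around Sox10 was touched by an open region (0.404% of all such regions were) or by a closed one (7.33%). The single closed region lay 76.4 kb downstream, from 78918201 to 78918900, with a score of 57.2, the 11372nd of its list. It held a mature luminal peak alone, from 78918368 to 78918719, with a fold of 5.48.

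**Figure D3:**
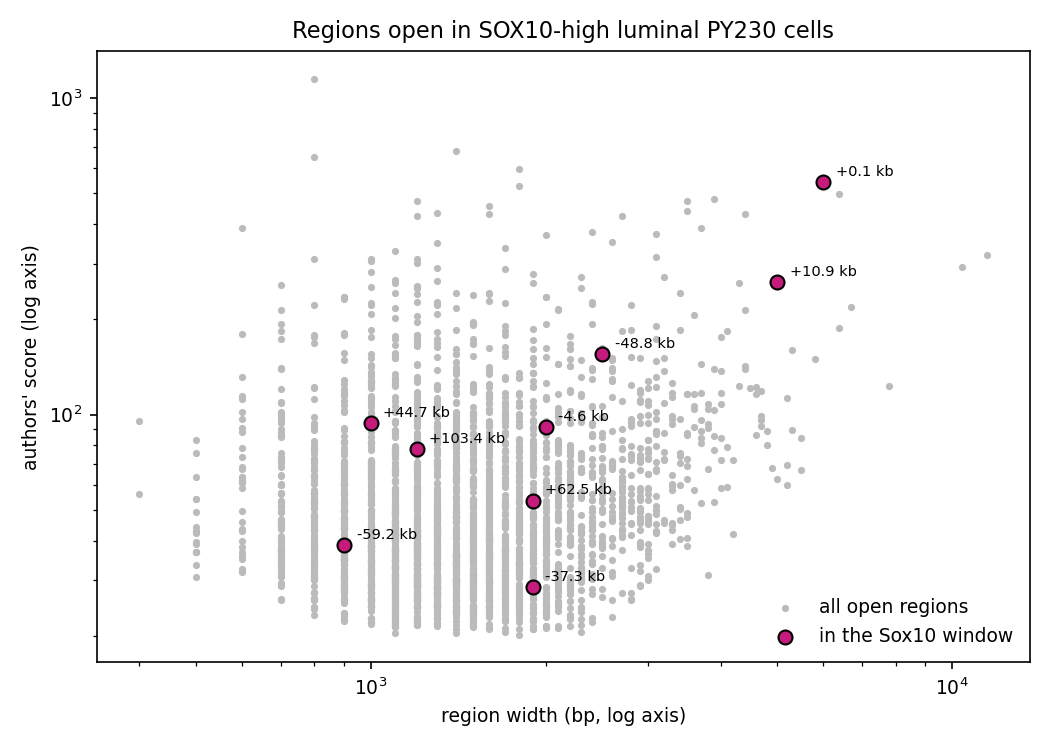
Width (bp, log axis) and authors' score (log axis) of the 3208 regions open in SOX10-high luminal PY230 cells, with the 9 in the Sox10 window as large points labelled by distance from the start of the gene. The regions at the start and the far end of Sox10 have scores of 542 and 263 and are wider than nearly all others.

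Sox9, in contrast to Sox10, had peaks over its start in all 4 normal types. The merged region there ran from 112642248 to 112645587, with folds of 21.5 (fMaSC), 15.1 (basal), 13.0 (mature luminal) and 10.8 (luminal progenitor). In fMaSC the start had a peak in the upper 7.18% of the list, from 112643260 to 112644452, with a weaker neighbour of fold 8.36 just before it. In basal cells it was a single peak of 3338 bp, the 653rd widest of 80294. The luminal progenitor peak measured 1606 bp and the mature luminal one 1728 bp, each the widest of that type in the window. Each type had at least 1 peak in the gene at or above its list's median fold, with 2 in fMaSC. Basal peaks covered 65.8% of the gene, luminal progenitor peaks 36.3%, fMaSC peaks 30.5% and mature luminal peaks 29.1%. Inside the gene, 3.3 kb from the start, the 3 adult types had a further peak, with folds of 7.47 (mature luminal), 5.40 (luminal progenitor) and 4.74 (basal), and fMaSC had none.

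Of the 25 merged regions around Sox9, 4 had a peak in all types, or 16.0%, against 21.7% of all regions. Beside the start these lay 14.1 kb upstream, 6.7 kb downstream, just past the end of the gene, and 29.7 kb downstream. The last, from 112672040 to 112673398, was the strongest site of the window in mature luminal cells (fold 21.7, in the upper 7.60% of that list) and in basal cells (16.6). It had folds of 12.4 in fMaSC and 11.8 in luminal progenitors. The site 14.1 kb upstream, from 112628189 to 112629661, was the strongest in luminal progenitors, with a fold of 13.5, against 13.6 in basal cells, 11.5 in mature luminal cells and 9.88 in fMaSC. Mature luminal peaks lay in 8 of 25 regions, or 32.0%, near the 31.9% found around Sox10.

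Farther upstream of Sox9 the mature luminal list was empty. Such stretches are common, as 26.2% of consecutive windows as long as the whole Sox9 window held no mature luminal peak. No mature luminal peak lay in the window beyond 23.4 kb upstream, while the other types shared 3 regions there. Regions of this pattern were 3 of 25 around Sox9, or 12.0%, against 6.47% of all regions. The strongest was 70.8 kb upstream, from 112570710 to 112573790. In fMaSC it had a fold of 30.9, the highest of the window and in the upper 1.19% of the list, against 12.1 in basal and 6.86 in luminal progenitor cells. The region 49.1 kb upstream, from 112593465 to 112594389, had folds of 16.2 (fMaSC), 11.4 (basal) and 5.20 (luminal progenitor). The region 52.9 kb upstream had 6.33, 8.84 and 4.99. The site 49.1 kb upstream carried the only mature luminal URR of the window, from 112593401 to 112594700, the 125th of 1028 by score. At least 1 such URR was found in 6.96% of consecutive windows, and the one here touched 1 of the 25 merged regions, or 4.0%, against 0.904% of all regions. It thus lay on 1 of the 3 regions of this pattern, against 10.3% of such regions in the genome. Around Sox10, 3 URRs touched all 4 regions of this pattern. The strongest fetal site of the locus was not in the URR list.

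No region around Sox9 was called open in SOX10-high PY230 cells, and 2 were called closed, so 0 of 25 merged regions were touched by the open list and 1 by the closed list (4.0%, against 11.0%). Having no open region was usual, as in 82.7% of consecutive windows. The closed region 23.5 kb upstream, from 112618801 to 112620200, held a luminal progenitor peak (fold 4.57) and a mature luminal peak (fold 5.98), and was 14959th of 15108 by score. The other, 52.4 kb downstream, from 112694801 to 112696000, ranked 8003rd and held no normal peak. None of the 4 shared regions, the start of Sox9 among them, was touched by either list. Just outside the window, 18.1 kb from its edge, an open region of 3800 bp ran from 112521101 to 112524900, with a low score of 31.1 (2496th). A basal UAR lay within it, from 112522601 to 112524100, and an fMaSC UAR 24.6 kb from the edge, from 112517501 to 112518400.

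**Figure D4:**
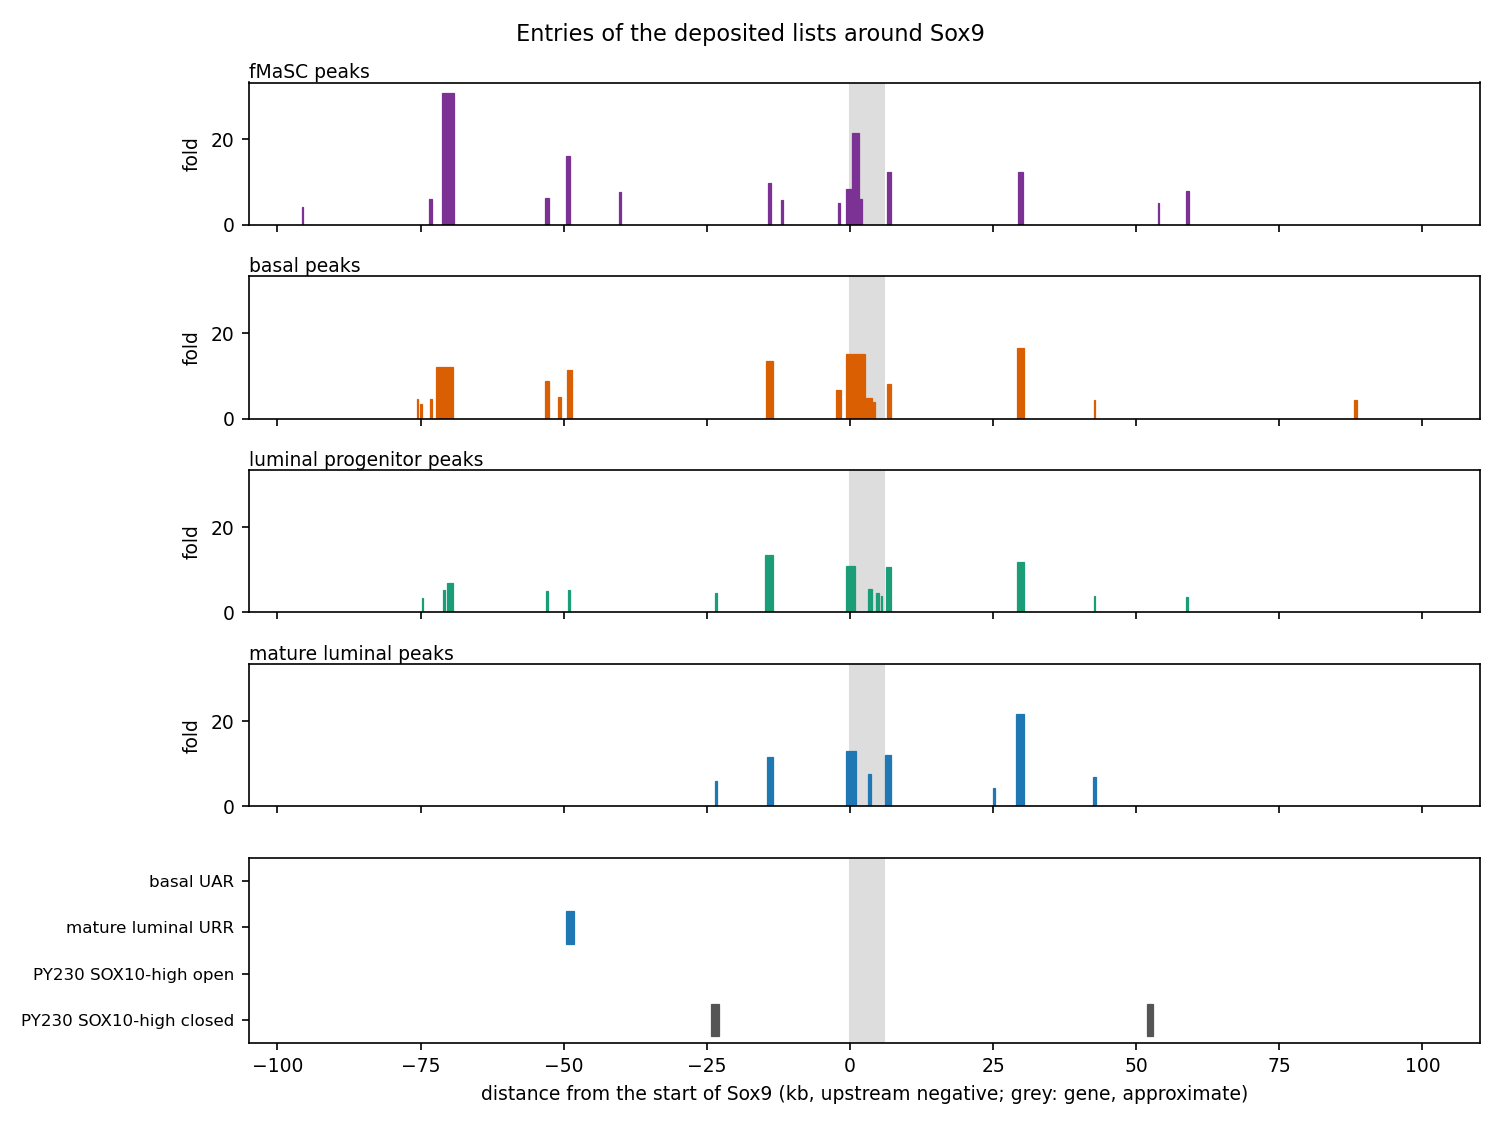
All entries around Sox9 by distance from its start in kb (upstream negative, gene in grey). The 4 upper panels give each peak's span and the authors' fold, and the lowest the spans of UAR, URR and PY230 regions. All types have a peak at the start, mature luminal cells have none beyond 23.4 kb upstream, and the row of open regions is empty.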

How the data were processed

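Tools in the submitters' processing notes are MACS2 2.1.1 and SICER, beside Bowtie 0.12.8, bedtools 2.20.1, SAMtools 1.3.1 and FastQC, with mm9 as the build and no roles stated. The sources used here do not give the treatment of duplicates, repeats and Tn5 offsets, which affects which peaks exist. Per the labels, the authors called peaks on both samples of a type together at a q-value of 0.001. The deposited value of a peak is a fold, a ratio to the peak caller's background. The value in the other 10 deposited lists is a score of unstated scale, and region edges lie on a 100 bp grid, so those entries were moved by 1 base to 1-based positions.

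Entries on 19 autosomes and X were used. Ranks count higher values in the same list. Overlap means at least 1 bp, and peaks that overlap or touch were merged. Consecutive windows run from the first base of each chromosome, so they can split a cluster that a window centred on a gene holds whole. All UAR, URR and PY230 entries of the windows are named. Peaks were named from the 3 highest, the widest and the gene-touching peaks of each list. Merged regions were named from those that all types share or that a PY230 entry touches. Not every peak or merged region of these kinds is printed. Members, windows and lists were chosen with earlier results of these data known. Other entries named, such as regions lacking a mature luminal peak, were chosen after their values were seen. Planned motif, protein and marker descriptions were not made. Python 3.11.15, numpy 2.4.6 and pandas 2.3.3 were used. The interval code was tested on simulated data against bedtools 2.31.1.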

Additional observations from a re-analysis of the deposited data

How the results depend on the processing

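No paired analysis was possible because each list pools its samples, and for the same reason no replicate was left out. Of 120 alternative values for 40 counts and shares, 62 stayed within 1.5 times the reported value and 58 did not, mostly because an alternative counts fewer peaks or a shorter window by construction. The number of open regions around Sox10 was 6 within 50 kb of the gene and 7 at or above the median score, and that around Sox9 was 0 in each.

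Within 50 kb of the gene, Sox10 had 19 fMaSC and 9 mature luminal peaks, 30 merged regions (6 with all types and 9 with mature luminal peaks), 1 basal UAR touching 1 region, and 0 closed regions touching 0. Sox9 had 8 mature luminal peaks, against 9 basal, 10 luminal progenitor and 11 fMaSC peaks. It had 16 merged regions, 1 of them lacking mature luminal peaks alone. Mature luminal peaks covered 6.52%, nearly as much as fMaSC peaks (6.59%).

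With peaks at or above the median fold, Sox10 had 17 fMaSC, 16 basal, 10 luminal progenitor and 8 mature luminal peaks, with 11.5% covered in basal cells and 4.27% in luminal progenitors. There were 22 merged regions, 6 with all types and 8 with mature luminal peaks. Basal cells then no longer had the most peaks around Sox10. Sox9 had 9, 7, 5 and 4 peaks in that order, 2.99% covered in luminal progenitors, and 9 merged regions, 1 lacking mature luminal peaks alone and 4 with them.

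With the 30015 strongest peaks of each list, coverage around Sox10 was 6.48% (fMaSC), 9.75% (basal) and 4.27% (luminal progenitor). Peaks numbered 11, 13 and 10 there, and 8 in mature luminal cells. Merged regions were 18, with 5 shared by all types, 2 lacking mature luminal peaks alone and 8 with them. Around Sox9, peaks numbered 6, 5, 5 and 4, coverage was 3.01%, 4.68% and 2.99%, and 6 merged regions included 1 lacking mature luminal peaks alone and 4 with them.

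With peaks of 500 bp, coverage around Sox10 was 6.85% in fMaSC and 9.29% in basal cells, and around Sox9 3.88% in basal and 1.94% in mature luminal cells. At or above the median score, 0 basal UARs and 0 closed regions remained around Sox10 and 0 closed regions around Sox9.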

Other observations

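The stretch without a mature luminal peak over Sox10 was examined after it had been seen. It measures 27.9 kb, and 18135 stretches between neighbouring mature luminal peaks are at least as long. The other 3 types had 24 peaks wholly inside it, or 8.61 per 10 kb, against a median of 0.329 per 10 kb over these stretches. By this density, 2 of the 18135 stretches, the one over Sox10 included, reached its value. The stretch over Sox10 set the length limit, so none of the others is shorter. For a given number of peaks, density is lower in a longer stretch. By number alone, 175 stretches held 24 or more such peaks. All 3 types had a peak inside 31.0% of the stretches. Merged over the types, the 24 peaks over Sox10 formed 9 separate regions.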
